A study of Homo sapiens with 6 samples.

Results

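Aminoacyl-tRNA synthetases join each amino acid to its tRNA, the step that turns the genetic code into protein. Human cells use a cytosolic set and a separate, nuclear-encoded mitochondrial set, whose genes carry a final 2 in their names. The glycyl and lysyl enzymes, GARS1 and KARS1, serve both compartments and were counted with the cytosolic ones. Genes of many cytosolic synthetases are known targets of ATF4, the transcription factor of the integrated stress response, which is also active when uncharged tRNA stimulates the kinase GCN2. The 36 genes described here were chosen by name, 20 cytosolic and 16 mitochondrial, out of 18574 genes that the arrays measured through probe sets of a single gene.

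The study measured RNA of cells labelled HepG2, an established line from a human liver cancer, on 6 expression arrays to find pathways that differ after SOX9 knockdown. In 3 samples the cells had been infected with a virus that carries a short hairpin RNA against SOX9 and grown as a knockdown clone. The other 3 samples came from a control clone made with an empty virus. All were cultured in DMEM with fetal bovine serum, and no other agent is named. Each group is thus 1 clone, the labels do not say that its samples were separate cultures, and the p-values therefore reflect array-to-array spread that may be no more than technical. A difference between the clones and an effect of the hairpin cannot be told apart.

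SOX9 read 6.91, 7.08 and 6.90 in knockdown arrays and 8.15, 7.99 and 7.67 in control arrays (log2 signal), with no overlap between the groups. Its log2 fold change, knockdown minus control throughout, was -0.97 (SE 0.13, limma adjusted p = 0.00114). These values are of the brightest SOX9 probe set. Another passed at -0.83 (limma adjusted p over all probe sets = 0.00470). The remaining one, at -0.81, did not (0.0716). Its groups overlapped, with control 3 at 4.67 inside the knockdown range of 4.41 to 4.76. Of 13 hepatocyte markers, 2 averaged at least 5 on the log2 scale, and ALB averaged 3.37 ± 0.26 in knockdown and 3.14 ± 0.44 in control arrays (SD, n = 3 each), against the label. AFP, typical of the line, averaged 2.61 ± 0.11 in knockdown and 2.70 ± 0.14 in control arrays. RBP4, a retinol carrier and 1 of the 2 markers above 5, rose, at 6.28 ± 0.24 in knockdown and 5.02 ± 0.24 in control arrays (log2 fold change 1.26, adjusted p = 6.89e-04). Over the whole list, hepatocyte markers averaged 3.73 to 3.94 in knockdown and 3.58 to 3.86 in control arrays, below both other lists. Leukocyte markers averaged 4.07 to 4.33 in knockdown and 3.84 to 4.17 in control arrays, and 2 of 6 averaged at least 5. Endothelial markers averaged 4.45 to 4.72 in knockdown and 4.44 to 4.88 in control arrays, and 2 of 5 averaged at least 5. Of the leukocyte markers, CD68, a lysosomal protein of macrophages, rose (log2 fold change 0.62, adjusted p = 0.00820, groups apart). The part of these markers in the results was not tested. Across all genes 3114 changed (16.8%), 1551 lower and 1563 higher at an adjusted p under 0.05. Some array measures moved with the groups. Spiked-in poly-A RNAs, added to follow the labelling step, averaged 6.94 to 7.30 in knockdown arrays, and 6.50, 6.66 and 7.12 in control arrays 1 to 3. For GAPDH, the 3′ control probe set exceeded the 5′ one by 0.24 to 0.42 in knockdown arrays, and 0.04, 0.03 and 0.26 in control arrays 1 to 3, so that control 3 lay with the knockdown arrays in both measures. Many calls that changed with the spike-in level as a covariate, or without 1 array, are given beside the results. For ACTB the same measure ran the other way, at 2.29, 2.34 and 2.19 in knockdown arrays and 2.56, 2.55 and 2.51 in control arrays, with control 3 among the controls. The part of these 3′ to 5′ measures in the results was not tested.

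The promoters of the members were searched because more cytosolic members fell than rose. The letters searched, on both strands, were TGATGNAA, the core of the composite elements that ATF4 binds together with C/EBP proteins. In windows from 250 bases before to 50 after each RefSeq start (GRCh38.p14), 7 of 16 cytosolic members with a window and 1 of 14 mitochondrial ones held a match, where 4.46% of all 27305 genes and 3.62% of all 35116 windows did. Those not matched to a window included LARS1, VARS1, YARS1, AARS2 and VARS2. The matches are shown because 6 of the 7 cytosolic ones lie in genes that fell. Of the 16 cytosolic members with a window, 9 fell. Whether the matches bear on the falls was not tested. The mitochondrial match lies in YARS2, which rose. Each line gives the gene strand from 5′ to 3′, with the matched letters in capitals.
AARS1, chr16:70289675-70289704, minus strand: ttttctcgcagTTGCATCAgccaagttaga
CARS1, chr11:3057407-3057436, minus strand: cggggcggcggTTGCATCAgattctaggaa
GARS1, chr7:30594834-30594863, plus strand: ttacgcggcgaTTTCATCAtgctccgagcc
IARS1, chr9:92293692-92293721, minus strand: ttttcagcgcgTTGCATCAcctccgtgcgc
MARS1, chr12:57488053-57488082, plus strand: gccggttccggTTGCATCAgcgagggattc
TARS1, chr5:33440956-33440985, plus strand: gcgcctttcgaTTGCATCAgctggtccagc
NARS1, chr18:57621804-57621833, minus strand: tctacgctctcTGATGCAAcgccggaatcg
YARS2, chr12:32756076-32756105, minus strand: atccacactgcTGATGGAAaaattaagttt

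In AARS1 the match begins 187 bases before an annotated start, in GARS1 33 bases before the second of its annotated starts and in IARS1 13 bases before a start. In CARS1 and MARS1 it spans the start, and in TARS1 and NARS1 it begins 3 and 15 bases into the transcript. In YARS2, the mitochondrial tyrosyl enzyme, it begins 197 bases before the start. Among cytosolic members with a window, 6 of 9 that fell, 0 of 3 that rose and 1 of 4 that did not pass held a match. In the 250 bases before the start alone these counts were 3 of 9, 0 of 3 and 0 of 4. A match of letters is a description of the window, and no binding was measured here.

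More cytosolic synthetase genes fell than rose in knockdown cells. Of the 20, 11 fell and 3 rose, where 8.35% and 8.41% of all genes did, and 6 did not pass. Many of all genes read lower than the members. Among the 11702 genes averaging at least 5 on the log2 scale, 15.1% fell and 16.1% rose, and 12 and 3 cytosolic members did. The median log2 fold change was -0.45 for the cytosolic members, 0.16 for the mitochondrial members and 0.03 for all genes. No mitochondrial member fell and 2 of 16 rose in limma, and at an unadjusted p under 0.05 1 was lower and 5 were higher, where 13.4% and 15.2% of all genes were. As a group the mitochondrial members read lower, with a lowest mean of 5.97 over the arrays against 7.73 for the cytosolic members. The part of signal level in this contrast was not tested. In bulk RNA of this kind, less RNA per cell and fewer cells that express a gene cannot be told apart.

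**Figure D1:**
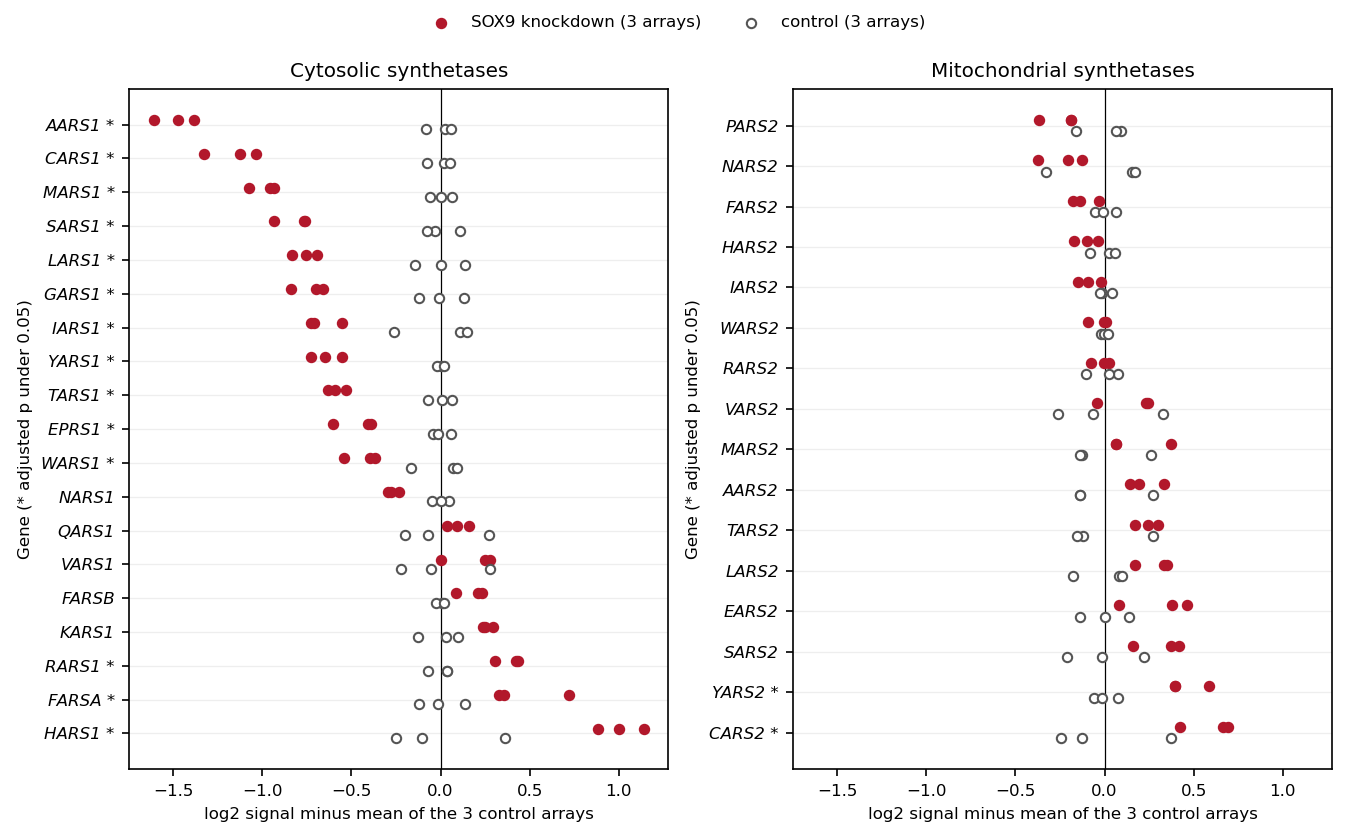
Each row is a gene and each point an array, with log2 signal minus the mean of the 3 control arrays on the horizontal axis, filled for SOX9 knockdown and open for control. Cytosolic genes are on the left and mitochondrial ones on the right, and an asterisk marks an adjusted p under 0.05; 1 cytosolic member is not shown. Knockdown points of AARS1 lie farthest to the left and those of HARS1 farthest to the right.

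AARS1, the alanyl-tRNA synthetase, showed the largest fold change of the 36. It read 8.94, 8.85 and 8.71 in knockdown arrays and 10.35, 10.24 and 10.38 in control arrays. All knockdown arrays were far below all control arrays. The log2 fold change was -1.49 (SE 0.10, limma adjusted p = 4.86e-05), which left 35.7% of the control signal. The deposited table aligns this transcript to chromosome 16, band q22.1, minus strand, positions 70286200 to 70323458, in a build not given in the sources used here.

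CARS1, which charges cysteine, read 8.59, 8.50 and 8.30 in knockdown arrays and 9.65, 9.55 and 9.68 in control arrays. The groups did not overlap, and the log2 fold change was -1.16 (SE 0.10, adjusted p = 1.63e-04). MARS1, whose product charges both the initiator and the elongator methionine tRNA, read 8.46, 8.48 and 8.34 in knockdown arrays and 9.48, 9.36 and 9.42 in control arrays. Its knockdown signal was 50.3% of control (log2 fold change -0.99, SE 0.09, adjusted p = 2.04e-04). These 2 genes and AARS1 are the members with the lowest fold changes.

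SARS1, which charges serine and also selenocysteine tRNA, read 10.10, 10.09 and 9.92 in knockdown arrays and 10.96, 10.83 and 10.78 in control arrays (log2 fold change -0.82, SE 0.10, adjusted p = 7.30e-04). LARS1, the leucyl enzyme and a sensor of leucine for mTORC1, read 9.64, 9.78 and 9.72 in knockdown arrays and 10.62, 10.48 and 10.33 in control arrays (-0.76, SE 0.10, adjusted p = 0.00127). Neither gene's groups overlapped. GARS1, the glycyl enzyme of both compartments, read 11.38, 11.34 and 11.20 in knockdown arrays and 12.03, 11.92 and 12.17 in control arrays, a log2 fold change of -0.73 (SE 0.10, adjusted p = 0.00155). Without GARS1 and KARS1, 10 of 18 cytosolic members fell and 3 rose, and the median was again -0.45.

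The remaining falls left between 63.2% and 73.9% of the control signal. IARS1, the isoleucyl enzyme, changed by -0.66 (SE 0.12, adjusted p = 0.00579), and control 3 at 11.14 was the lowest of its control arrays, against 11.51 and 11.55. YARS1, the tyrosyl enzyme, averaged 9.53 ± 0.09 in knockdown and 10.17 ± 0.02 in control arrays (SD, n = 3 each; log2 fold change -0.64, adjusted p = 0.00164). TARS1, the threonyl enzyme, averaged 11.71 ± 0.05 in knockdown and 12.30 ± 0.07 in control arrays (-0.58, adjusted p = 0.00243). EPRS1, a fusion of glutamyl and prolyl synthetases in 1 chain, averaged 10.95 ± 0.12 in knockdown and 11.42 ± 0.05 in control arrays (-0.47, adjusted p = 0.00968). WARS1, the tryptophanyl enzyme, which interferon is known to induce, averaged 10.25 ± 0.09 in knockdown and 10.69 ± 0.14 in control arrays (-0.44, adjusted p = 0.0195). The groups of all 5 genes were apart. The WARS1 call was lost without knockdown array 1, knockdown array 3 or control array 1 (adjusted p = 0.0534, 0.0723 and 0.0764), and IARS1, WARS1 and no other member that fell lost the call with the spike-in covariate (adjusted p = 0.109 and 0.110), at log2 fold changes of -0.48 each.

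HARS1, the histidyl enzyme, went the other way. It read 9.66, 9.52 and 9.40 in knockdown arrays and 8.27, 8.41 and 8.88 in control arrays. All knockdown arrays were above all controls, of which control 3 came nearest. The signal was 2.01-fold that of control (log2 fold change 1.01, SE 0.15, adjusted p = 0.00219). The fold change was 1.19 (adjusted p = 6.06e-04) without control 3 and 0.70 (adjusted p = 0.0339) with the spike-in covariate. All 3 probe sets of HARS1 passed, at 0.67, 0.81 and 1.01.

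HARS2, the mitochondrial histidyl enzyme, starts beside HARS1 on the opposite strand. It read 7.80, 7.93 and 7.87 in knockdown arrays and 7.99, 7.88 and 8.02 in control arrays. These groups overlapped (log2 fold change -0.10, 95% interval -0.31 to 0.11, adjusted p = 0.558). The table aligns HARS1 to chromosome 5, minus strand, positions 140053489 to 140071312, and HARS2 to the plus strand, positions 140071010 to 140078893, so the 2 alignments overlap at their 5′ ends. By these alignments no gap separates the genes, whereas the annotated RefSeq starts leave one. The stretch between the RefSeq starts is shown because it lies just before both of them. It holds 84 bases, has no match to TGATGNAA, and holds 2 matches to CCGGAAGT, a core bound by ETS family factors that was searched after the sequence was seen. Of all genes, 4.95% held those letters in a window, as did 4.14% of all windows. So did windows of 5 of 16 cytosolic members, among them CARS1, TARS1 and WARS1, which fell, and of 3 of 14 mitochondrial members. HARS1 and HARS2, whose shared stretch prompted the search, are in these counts. The stretch is given on the plus strand, which is the HARS2 strand, with the matches in capitals.
HARS1 to HARS2, chr5:140691371-140691454 (GRCh38.p14, RefSeq): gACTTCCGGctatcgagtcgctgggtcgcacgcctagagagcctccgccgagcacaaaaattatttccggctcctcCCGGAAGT

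FARSA and RARS1 also rose. FARSA, the catalytic alpha subunit of phenylalanyl-tRNA synthetase, read 8.22, 7.86 and 7.83 in knockdown arrays and 7.38, 7.48 and 7.64 in control arrays (log2 fold change 0.47, SE 0.13, adjusted p = 0.0315). FARSB, its beta subunit, averaged 9.77 ± 0.08 in knockdown and 9.59 ± 0.02 in control arrays (SD, n = 3 each; 0.18, adjusted p = 0.245). Both subunits had higher readings in every knockdown array than in any control array, but FARSB did not pass. RARS1, the arginyl enzyme, read 10.17, 10.30 and 10.29 in knockdown arrays and 9.90, 9.90 and 9.79 in control arrays (0.39, SE 0.09, adjusted p = 0.0176). The FARSA call was lost without knockdown array 1 (adjusted p = 0.129), control array 1 (0.114) or control array 2 (0.0721), and the RARS1 call without knockdown array 2 (0.0697) or 3 (0.0593). With the spike-in covariate the log2 fold change was 0.27 (adjusted p = 0.379) for FARSA and 0.47 (adjusted p = 0.0637) for RARS1.

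Among the 6 cytosolic members that did not pass, NARS1, KARS1 and FARSB showed no overlap between groups and QARS1 and VARS1 overlapped. NARS1, the asparaginyl enzyme, averaged 11.08 ± 0.03 in knockdown and 11.34 ± 0.05 in control arrays (log2 fold change -0.27, adjusted p = 0.0680). KARS1, the lysyl enzyme of both compartments, averaged 11.89 ± 0.03 in knockdown and 11.63 ± 0.11 in control arrays (0.26, adjusted p = 0.0965). QARS1, the glutaminyl enzyme, differed by 0.10 (95% interval -0.19 to 0.38) and VARS1, the valyl enzyme, by 0.18 (-0.14 to 0.49). In all, every knockdown array lay below every control array for 13 of 20 cytosolic members and above for 5, where 15.5% and 16.9% of all genes showed these patterns (32.4% together).

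Cytosolic enzymes can be ordered by the particle they work in and by their fold. Of the 8 enzymes of the multisynthetase complex, 4 fell and 1 rose, where 8.35% and 8.41% of all genes did. The median of the complex was -0.33. Of the 12 outside it 7 fell and 2 rose, with a median of -0.51. Both directions therefore occurred within the complex, where MARS1 read 50.3% and RARS1 131% of control. By catalytic fold, 6 of 9 class I enzymes fell and 1 rose, and 4 of 10 class II enzymes fell and 2 rose, EPRS1 holding a domain of each class. Among genes averaging at least 5 on the log2 scale, 15.1% fell and 16.1% rose. The difference between the subgroups of enzymes was not tested.

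The log2 fold changes of the 16 mitochondrial members lay between -0.25 and 0.59. YARS2, the tyrosyl enzyme, rose, with 7.50, 7.50 and 7.69 in knockdown arrays and 7.04, 7.18 and 7.09 in control arrays (log2 fold change 0.46, SE 0.10, adjusted p = 0.0105). CARS2, the cysteinyl enzyme, rose, with 9.40, 9.43 and 9.16 in knockdown arrays and 8.61, 8.49 and 9.11 in control arrays (0.59, SE 0.16, adjusted p = 0.0290). Control 3 stood close to the knockdown arrays for CARS2 but not for YARS2. The CARS2 call was lost without knockdown array 1 (adjusted p = 0.105), knockdown array 2 (0.0895), control array 1 (0.103) or control array 2 (0.0873). With the spike-in covariate neither passed, at log2 fold changes of 0.34 (adjusted p = 0.378) for CARS2 and 0.45 (adjusted p = 0.107) for YARS2.

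Of the 14 mitochondrial members that did not pass, SARS2 (0.32), EARS2 (0.31), LARS2 (0.29), TARS2 (0.24), AARS2 (0.22), MARS2 (0.17) and VARS2 (0.15) had higher means in knockdown arrays. RARS2 (-0.02), WARS2 (-0.03), IARS2 (-0.09), HARS2 (-0.10), FARS2 (-0.12), NARS2 (-0.23) and PARS2 (-0.25) had lower ones. These values are log2 fold changes of the seryl, glutamyl, leucyl, threonyl, alanyl, methionyl and valyl enzymes, and then of the arginyl, tryptophanyl, isoleucyl, histidyl, phenylalanyl, asparaginyl and prolyl enzymes. LARS2 was higher and PARS2 lower in every knockdown array than in any control array, and the other 12 overlapped. Over all 16 mitochondrial members, such separation held for 1 as lower and 3 as higher. Of all genes, 15.5% and 16.9% showed it. Control 3 lay within the knockdown range for 5 mitochondrial members (AARS2, IARS2, NARS2, SARS2 and TARS2) and for 0 cytosolic ones. For the cytosolic QARS1 and VARS1 and for VARS2 it lay past that range, above every knockdown array. In these genes controls 1 and 2 lay below every knockdown array. Without control 3, AARS2 (0.36, adjusted p = 0.0434), SARS2 (0.43, 0.0410) and TARS2 (0.37, 0.0299) also rose and NARS2 fell (-0.40, 0.0368), so the mitochondrial counts became 5 higher and 1 lower.

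Partners that charge the same amino acid were compared within each array as the log2 difference of the cytosolic and the mitochondrial gene, over 17 pairs, since EPRS1 pairs with EARS2 and PARS2, and both phenylalanyl subunits with FARS2. In 10 pairs this difference was lower in every knockdown array than in any control array, in 4 pairs it was higher and in 3 pairs the groups overlapped. The share without overlap among other pairs of genes was not computed, and for single genes it was 32.4%. These pair counts also hold the shifts of the cytosolic members given above. For CARS1 and CARS2 the knockdown mean of this difference minus the control mean was -1.76, with readings of -0.81, -0.93 and -0.86 in knockdown arrays and 1.04, 1.06 and 0.57 in control arrays (two-sided exact permutation p = 0.1). The order of the 2 readings was thus turned round in knockdown cells, although readings of different probe sets are not levels on 1 scale. For AARS1 and AARS2 it was -1.71, and for HARS1 and HARS2 it was 1.11 (exact permutation p = 0.1 each). All 14 pairs without overlap reached 0.1, the smallest p that 3 arrays against 3 allow, and 0.121 after Benjamini-Hochberg adjustment over the pairs, so no pair could pass 0.05.

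**Figure D2:**
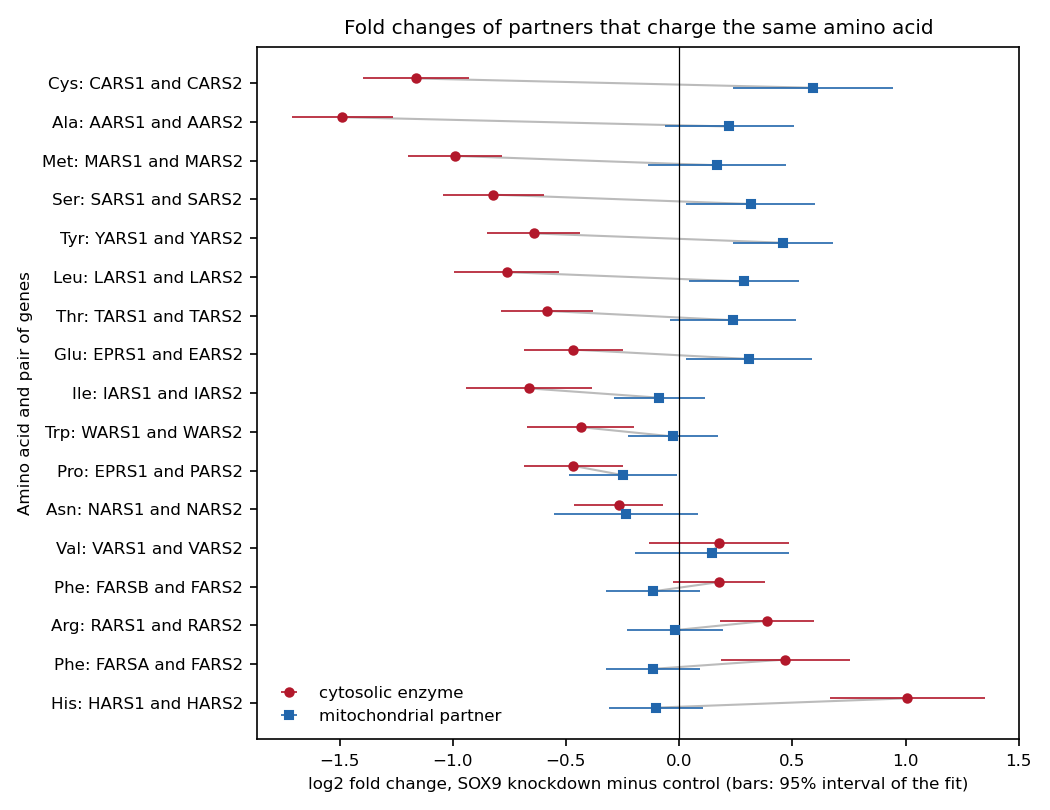
For each amino acid, the log2 fold change (SOX9 knockdown minus control) of the cytosolic enzyme is a circle and that of its mitochondrial partner a square, with the 95% interval of the fit. The cysteine pair, at -1.16 and 0.59, is the widest apart with the cytosolic enzyme lower, and the histidine pair, at 1.01 and -0.10, the widest with it higher.

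Seryl, methionyl, tyrosyl and leucyl pairs came next to the alanyl one, with values of -1.14, -1.16, -1.10 and -1.05. The threonyl pair stood at -0.82, EPRS1 with EARS2 at -0.78, the isoleucyl pair at -0.57 and the tryptophanyl pair at -0.41. Besides the histidyl pair, FARSA with FARS2 (0.59), RARS1 with RARS2 (0.41) and FARSB with FARS2 (0.29) had values above 0 without overlap. NARS1 with NARS2 (-0.03, exact permutation p = 1), VARS1 with VARS2 (0.03, exact permutation p = 0.5) and EPRS1 with PARS2 (-0.22, exact permutation p = 0.2) overlapped. The valyl enzymes had similar fold changes, 0.18 and 0.15.

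The arrays carry 91 single-gene probe sets for the 36 genes, 1 to 5 a gene, which give further readings of the same RNA. Of 56 cytosolic probe sets 31 were lower and 6 higher, and of 35 mitochondrial ones 0 were lower and 4 higher (limma adjusted p under 0.05 over all 49293 probe sets, where 6.68% were lower and 5.94% higher). At this level probe sets of AARS1, CARS1, EPRS1, GARS1, IARS1, TARS1 and WARS1 were lower without exception. They spanned -1.57 to -1.49 for AARS1 and -0.70 to -0.64 for the 4 of IARS1. Of 5 MARS1 probe sets 4 were lower, down to -1.23, and the other, which read under 5, was at -0.20. Of 3 LARS1 probe sets 2 were lower and 1 was at -0.29 (adjusted p = 0.294).

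**Figure D3:**
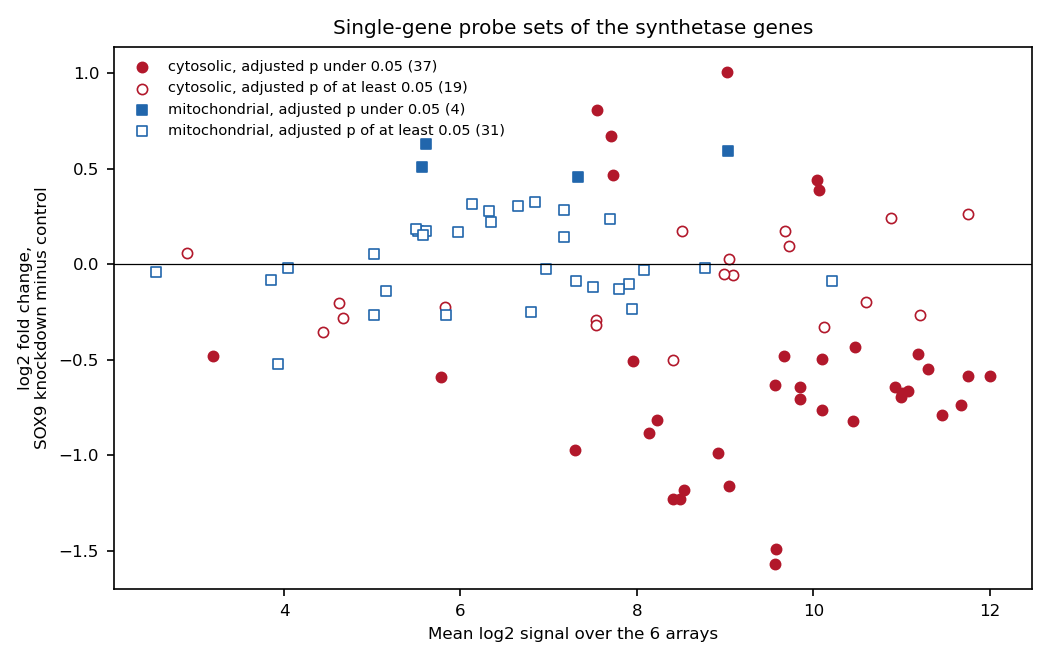
Each point is 1 of 91 probe sets of the synthetase genes, with its mean log2 signal over the 6 arrays on the horizontal axis and its log2 fold change (SOX9 knockdown minus control) on the vertical axis. Circles are cytosolic, squares mitochondrial, and filled symbols have an adjusted p under 0.05. Filled circles below 0 extend to -1.57, and no filled square lies below 0.

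Other members depended on the probe set. For NARS1, 2 of 4 probe sets passed, at -0.63 and -0.82 (adjusted p = 0.0336 and 0.0300), while the brightest did not. For EARS2, 2 of 4 passed as higher, at 0.51 and 0.63 (adjusted p = 0.0400 and 0.0115), though its brightest probe set did not. For CARS2 the brightest of 3 passed and the others, at 0.32 and 0.17, did not. The probe sets differed in sign for QARS1 (-0.32 and 0.10), VARS1 (-0.36 to 0.18), FARSB (-0.06 to 0.18), MARS2 (-0.27 to 0.17), SARS2 (-0.08 and 0.32) and VARS2 (-0.02 to 0.19), none of which passed.

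Other genes that handle tRNA or act beside it in elongation were taken from 7 lists. Of 35 measured, 7 fell and 3 rose, where 8.35% and 8.41% of all genes did, with a median log2 fold change of 0.06. With only genes averaging at least 5 on the log2 scale, 7 fell and 4 rose, where 15.1% and 16.1% of those genes did. The non-enzymatic scaffolds of the multisynthetase complex did not pass, with AIMP1 at -0.00, AIMP2 at 0.12 and EEF1E1 at 0.35 (adjusted p = 0.0574). EEF1E1 passed as higher without knockdown array 1 (0.45, adjusted p = 0.0449). TARS3, a second cytosolic threonyl enzyme, was at 0.06 (adjusted p = 0.750). The scaffolds thus gave no lower call beside the 4 complex enzymes that fell.

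In the list of tRNA maturation, export and quality control, 2 of 9 fell and 3 rose, where 8.35% and 8.41% of all genes did. Among genes averaging at least 5 on the log2 scale, these shares were 15.1% and 16.1%. SEPSECS makes selenocysteinyl-tRNA from the phosphoseryl-tRNA that the kinase PSTK forms after SARS1 has charged the tRNA with serine. SEPSECS fell by 1.10 on the log2 scale and read 6.10 ± 0.12 in knockdown and 7.19 ± 0.15 in control arrays (SD, n = 3 each; adjusted p = 2.82e-04). XPOT, the nuclear export receptor of tRNA, changed by -0.76 (SE 0.18, adjusted p = 0.0178), a call lost without knockdown array 1 or 2. The rises were PTRH2, a peptidyl-tRNA hydrolase, at 0.63 (SE 0.10, adjusted p = 0.00245), RTCB, the ligase of tRNA exons, at 0.51 (adjusted p = 0.00838), and ELAC2, which trims tRNA 3′ ends, at 0.47 (adjusted p = 0.0122). SSB, the La protein that binds new tRNA, DTD1, which clears D-amino acids from tRNA, and TRNT1, which adds the CCA end, did not pass (0.32, -0.17 and 0.10). PSTK was at 0.11 (adjusted p = 0.563). The ELAC2 call was lost without knockdown array 1, and with the spike-in covariate SEPSECS alone of all list genes kept its call.

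**Figure D4:**
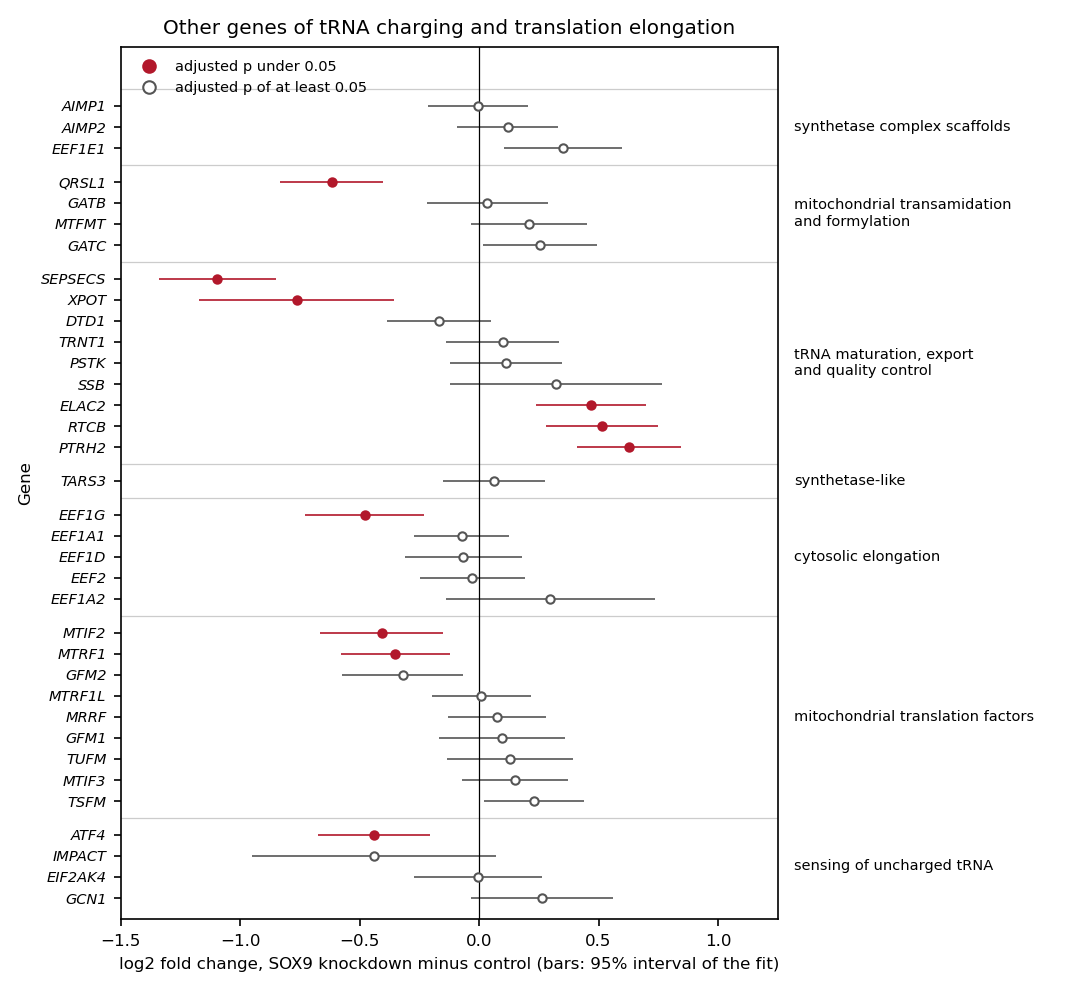
Log2 fold changes (SOX9 knockdown minus control) of 35 other genes of tRNA charging, tRNA handling and elongation, with the 95% interval of the fit, grouped by list. Filled points have an adjusted p under 0.05; SEPSECS at -1.10 is the lowest and PTRH2 at 0.63 the highest.

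Mitochondria make glutaminyl-tRNA indirectly, through an amidotransferase of 3 subunits, in place of a glutaminyl synthetase. Its catalytic subunit QRSL1 fell, at 7.57 ± 0.02 in knockdown and 8.19 ± 0.12 in control arrays (SD, n = 3 each; log2 fold change -0.62, adjusted p = 0.00247). With the spike-in covariate QRSL1 stood at -0.53 (adjusted p = 0.0519). The other subunits, GATB and GATC, were at 0.03 and 0.25, and MTFMT, which formylates initiator methionyl-tRNA, at 0.21, and none of these passed. Where 8.35% of all genes fell, 2 of 9 mitochondrial translation factors did. These were the initiation factor MTIF2 (-0.41, adjusted p = 0.0373) and the release factor MTRF1 (-0.35, adjusted p = 0.0431). Each of those calls was lost in over 9 of 16 alternatives, among them leaving out any knockdown array, control 2 or 3 for MTIF2, and control 1 or 2 for MTRF1. TUFM and GFM1, which carry and move mitochondrial tRNA on the ribosome, and TSFM, which recycles TUFM, did not pass (0.13, 0.09 and 0.23).

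Where 8.35% of all genes fell, 1 of 5 measured cytosolic elongation factors did. This was EEF1G (-0.48, SE 0.11, adjusted p = 0.0152), a subunit of the exchange factor that reloads EEF1A. That call was lost without knockdown array 1 or 2 or control array 1. EEF1A1, which brings charged tRNA to the ribosome, EEF2 and EEF1D were at -0.07, -0.03 and -0.07. With its probe set of largest variance EEF2 passed as lower (-0.57, adjusted p = 0.0347). ATF4 averaged 11.52 ± 0.09 in knockdown and 11.96 ± 0.13 in control arrays (SD, n = 3 each; -0.44, adjusted p = 0.0172), a call lost without knockdown array 1 or 3 or control array 1. EIF2AK4, the gene of the uncharged tRNA sensor GCN2, was at -0.00 (95% interval -0.27 to 0.26), and its activator GCN1 and inhibitor IMPACT were at 0.26 and -0.44 without passing.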

How the data were processed

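RNA of 3 SOX9 knockdown and 3 control samples was measured. RMA and affy are named in the submitters' processing notes, and the deposited values are log2 signals of 49372 probe sets. RMA evens the distributions of arrays and compresses low signals. Genome build and tool versions: not given in the sources used here. Both deposited tables held the same values. The number of arrays limits the precision. Names came through Entrez numbers and RefSeq (GRCh38.p14), and 4 probe sets naming a member with another gene were left out. Each gene was represented by its single-gene probe set of highest mean. Of the sets representing members, those whose names end in _s_at or _x_at (FARSB, MARS1, TARS1, YARS1, EARS2, IARS2, VARS2) can match further transcripts. So can the set of SOX9. Among list and marker genes that passed, so can those of SEPSECS, QRSL1, RTCB, EEF1G, MTRF1, ATF4 and CD68.

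Groups were taken from titles, since the description of knockdown samples names the empty virus. The comparison used lmFit and eBayes of limma 3.58.1 (R 4.3.3), two-sided, without covariate or filter, with Benjamini-Hochberg adjustment over 18574 genes and a threshold of 0.05. The fit was tested on simulated data. Partner differences used an exact permutation test (scipy 1.17.1). Promoter letters were searched with Python 3.11.15. All members were named except 1 cytosolic member, which enters the counts and medians but is not reported here, with every list gene that passed and up to 3 others of highest mean; hepatocyte, leukocyte and endothelial markers served as cell type checks. Members, lists and tests were chosen with earlier results of these data known. Alternatives were a filter on signal, repeated quantile normalization, a trended robust variance, array weights, a replicate block, a spike-in covariate, other probe set rules, adjustment over probe sets and leaving out each array.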

Additional observations from a re-analysis of the deposited data

How the results depend on the processing

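Of 16 members that passed, 10 kept the call in all 16 alternatives and 0 changed direction. These were AARS1, CARS1, EPRS1, GARS1, LARS1, MARS1, SARS1, TARS1 and YARS1, which fell, and HARS1, which rose. Of 20 that did not pass, 12 stayed so in all, and among the others NARS1 passed as lower in 6 alternatives and KARS1 as higher in 2. Leaving out 1 array gave 10 to 11 cytosolic members that fell, 2 to 3 that rose, 0 to 1 mitochondrial members that fell and 1 to 5 that rose, with the highest mitochondrial counts, 1 and 5, without control 3. With the spike-in covariate, 9 cytosolic members fell, 1 rose (HARS1), and 0 mitochondrial members rose, while calls over all genes dropped to 765. Array weights gave 4076 calls over all genes and leaving out knockdown 1, knockdown 2 or control 1 gave 1758, 2143 and 1971. The cytosolic median lay between -0.61 and -0.41 and the mitochondrial median between 0.04 and 0.20 in all settings. Of genes on the pathway lists, 1 fell and 0 rose with the spike-in covariate, and 2 to 6 fell and 3 rose when 1 array was left out. SOX9 changed by -0.81 (adjusted p = 0.0526) with the probe set of largest variance. Deviations of same-numbered arrays correlated at -0.20, -0.42 and -0.35, so the replicate numbers gave no sign of pairing. Knockdown 1 with control 3, knockdown 2 with control 1 and knockdown 3 with control 2 correlated at 0.27, 0.37 and 0.50. The remaining combinations stood at -0.09, 0.12 and -0.19. Another pairing or a batch shared across the groups was not tested. With the replicate block, 10 cytosolic members fell, 1 rose, 2 mitochondrial members rose, 4 pathway genes fell and 2181 genes passed in all. In the 250 bases before the start alone, 3 cytosolic members (AARS1, GARS1 and IARS1) and 1 mitochondrial member held TGATGNAA, against 7 and 1 in the longer window. The causes of these changes were not tested.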
